A study of Mus musculus with 12 samples.

Results

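Galectin transcripts were compared in mouse CD4+ T cells cultured with *L. acidophilus*, FK506 or both. The genes were chosen by symbol and are the 5 galectins *Lgals1*, *Lgals3*, *Lgals7*, *Lgals8* and *Lgals9*, together with *Lgals3bp*, which encodes a glycoprotein that binds galectin-3. These 6 genes stood among the 45777 listed in the deposited expression table, and all 6 were among the 23585 genes tested, those counted above 0 in 3 or more libraries. Per the labels, the cells were splenic CD4+ T cells of wild-type Balb/c mice aged 7 weeks. The study's methods name B6 mice as their source, so the strain is uncertain. Every culture received an anti-CD3 antibody (0.5 ug/mL, 3 days), a stimulus of the T-cell receptor, and no group was left unstimulated. Beyond the antibody, the 4 groups received nothing (anti-CD3 alone), the lactic acid bacterium *L. acidophilus*, FK506 (tacrolimus, an inhibitor of the phosphatase calcineurin) or the combination of both. Each group had 3 libraries of polyA RNA, numbered as replicates 1 to 3. The doses of *L. acidophilus* and FK506 in the sequenced cultures are not given in the sources used here. For its splenocyte and blood cell cultures, the study describes *L. acidophilus* inactivated by heat. Its RNA-seq methods do not say whether this holds for the sequenced cells. Nothing says whether the libraries of a group came from separate mice or cultures, so the p-values measure only the spread between these libraries, which may be technical.

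Galectins are small proteins that bind beta-galactoside sugars on glycoproteins and glycolipids, and they leave the cell without a signal peptide. Galectin-1 and galectin-7 are prototype members with a single type of carbohydrate-binding domain, galectin-3 is a chimera of such a domain with a flexible tail that lets it form lattices, and galectin-8 and galectin-9 are tandem-repeat members in which a linker joins a pair of domains. In T cells, galectins are known to bind CD45, CD43, CD7 and the T-cell receptor, and which sugars these receptors carry is set by glycosyltransferases such as *Mgat5* and *St6gal1*. Transcript levels do not show how much galectin protein was made or secreted.

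The DNA before an annotated start site is shown for *Lgals7*, *Lgals8* and *Lgals3*, whose transcripts responded in different ways, and for *Lgals9*, which passed no test in the fit of all 12 libraries. Calcineurin, the target of FK506, activates NFAT, a factor whose core binding letters are GGAAA. RefSeq's promoter table (GRCm38.p6) held a window for 5 of the 6 genes, all but *Lgals1*, and each sequence below is the part of the 250 bases before the table's start site that precedes any GENCODE M21 exon within those bases. Since *Lgals7*, *Lgals8* and *Lgals3* also have longer transcripts that begin further upstream, their stretches lie inside the genes as GENCODE annotates them. Capitals mark matches to GGAAA or to the interferon-stimulated response element GAAANNGAAA on either strand, and these letter patterns can overlap each other. The *Lgals7* stretch lies at chr7:28864136-28864228 on the plus strand, in introns of *Lgals7* and *Gm10648*. The *Lgals8* stretch lies at chr13:12461739-12461988 on the minus strand, in an annotated intron of the gene. The *Lgals3* stretch lies at chr14:47373610-47373812 on the plus strand, in an intron of the gene in GENCODE. It precedes the RefSeq span of *Lgals3*, which begins at 47373860. The *Lgals9* stretch lies at chr11:78984947-78985174 on the minus strand, outside annotated genes.
Lgals7: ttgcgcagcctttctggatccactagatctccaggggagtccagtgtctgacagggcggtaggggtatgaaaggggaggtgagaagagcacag
Lgals8: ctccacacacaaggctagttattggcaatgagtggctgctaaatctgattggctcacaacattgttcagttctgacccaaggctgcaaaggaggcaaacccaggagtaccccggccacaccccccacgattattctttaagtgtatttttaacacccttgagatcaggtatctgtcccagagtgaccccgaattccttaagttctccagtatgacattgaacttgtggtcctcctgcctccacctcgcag
Lgals3: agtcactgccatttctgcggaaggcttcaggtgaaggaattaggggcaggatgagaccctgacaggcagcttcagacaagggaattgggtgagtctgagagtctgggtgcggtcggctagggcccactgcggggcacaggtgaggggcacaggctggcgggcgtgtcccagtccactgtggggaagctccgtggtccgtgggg
Lgals9: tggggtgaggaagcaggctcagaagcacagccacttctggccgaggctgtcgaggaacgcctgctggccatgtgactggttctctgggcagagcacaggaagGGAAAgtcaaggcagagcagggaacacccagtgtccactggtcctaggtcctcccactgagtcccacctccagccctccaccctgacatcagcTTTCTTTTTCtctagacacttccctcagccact
In the full 250 bases, GGAAA was present before *Lgals9* (148 to 144 bases before the start) and before *Lgals7* (106 to 102 bases before the start, within an annotated exon and so not printed), and absent from the windows of *Lgals3*, *Lgals8* and *Lgals3bp*. Of all 32851 RefSeq promoter windows of this length, 55.6% held GGAAA. The interferon element was found before *Lgals9* alone of these genes, on the other strand, 55 to 46 bases before the start, and it was present in 2.98% of all windows. These are matches of letters, and binding was not measured.

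Library depth ranged from 45416397 to 64658165 counts, and the 4 libraries numbered 1 were the deepest, with at least 63113961. Replicate 2 of anti-CD3 alone stood apart from its group: its FPKM values (fragments scaled by transcript length and library size) summed to 486334, against 380445 to 433363 in the other 11 libraries. It also held the highest FPKM in its group of *Lgals1*, *Lgals3*, *Lgals7* and *Lgals3bp*, so several values of these genes are given with and without it. Values of the other gene lists are given only with it. T-cell markers (8 genes) summed to between 1283 and 2110 FPKM in every library, and the CD8 markers *Cd8a* and *Cd8b1* to at most 9.02. Markers of other cell types moved with the groups. B-cell markers (10 genes) summed to between 35.1 and 58.7 FPKM with anti-CD3, 23.8 and 34.6 with *L. acidophilus*, 220.4 and 425 with FK506, and 138 and 158 with the combination. Macrophage and dendritic cell markers (13 genes) summed to between 2.52 and 4.18 FPKM with anti-CD3, where *Csf1r*, *C1qa*, *C1qb*, *Clec9a* and *Siglech* were at 0. Their sums were between 3.83 and 9.52 with *L. acidophilus*, 7.26 and 22.5 with FK506, and 55.8 and 96.3 with the combination, where none was at 0. NK-cell markers (4 genes) summed to between 0.444 and 0.803 FPKM with anti-CD3, 0.861 and 1.30 with *L. acidophilus*, 2.92 and 8.16 with FK506, and 6.14 and 14.3 with the combination. Most of that sum was *Eomes*, which T cells also express (mean 8.46 with the combination, against 0.328 for *Ncr1* and 0.236 for *Klrb1c*). Neutrophil markers summed to at most 0.427 in any library. In such bulk libraries, fewer cells of a type and less RNA per cell cannot be told apart, and galectins are also made by macrophages and B cells.

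Across the 12 libraries, *Lgals1* was the most abundant of the 6 genes per unit length, with a mean FPKM of 462 and the 125th highest mean in the table. *Lgals7* followed at 54.8, *Lgals9* at 45.2, *Lgals3bp* at 42.8, *Lgals3* at 30.9 and *Lgals8* at 11.4. Each of the 6 had counts above 0 in all 12 libraries. The 6 genes did not move together: galectin-7 transcripts fell, galectin-8 transcripts rose, galectin-3 transcripts were highest with the combination and galectin-9 transcripts passed no test in the fit of all 12 libraries.

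**Figure D1:**
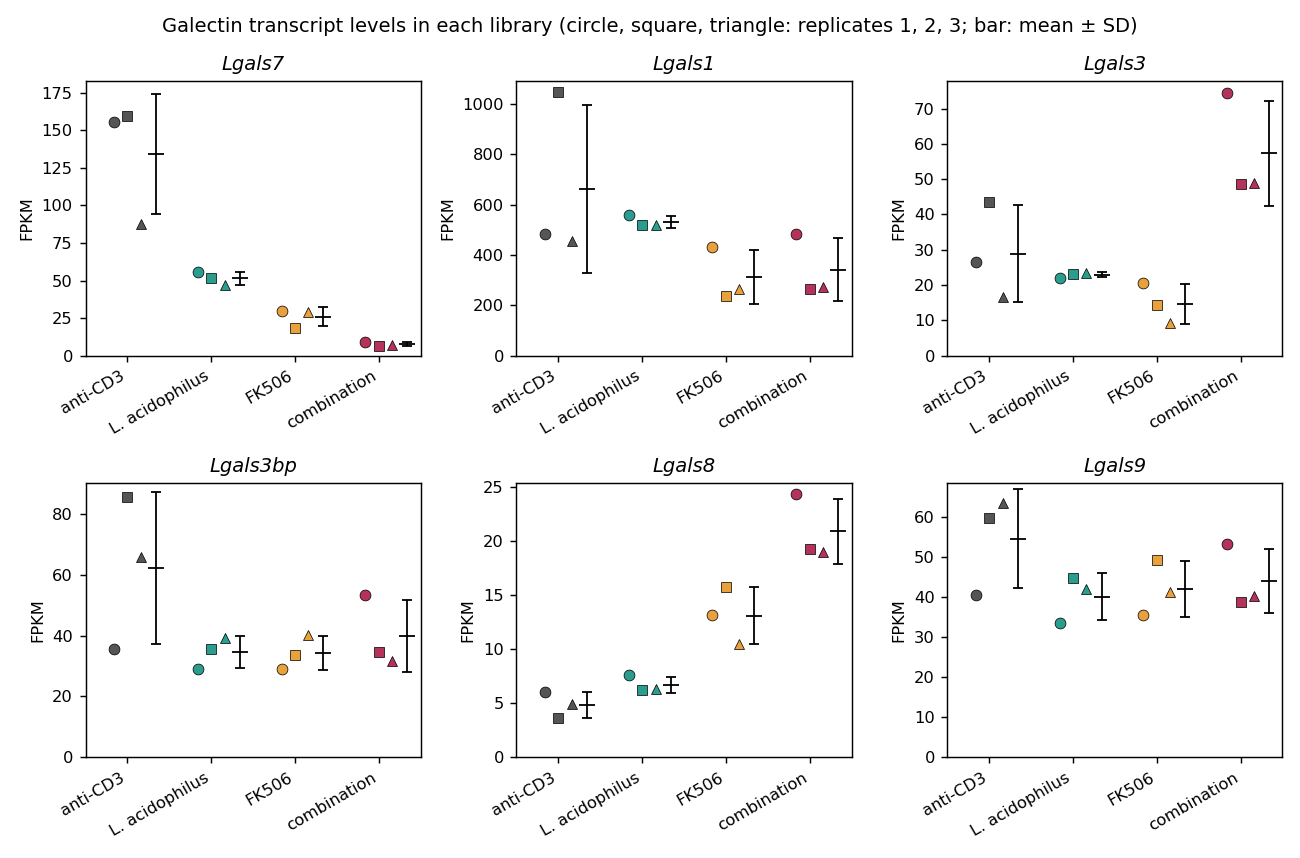
FPKM of the 6 genes (vertical axis, from 0) in each of the 12 libraries, by group; circles, squares and triangles are replicates 1, 2 and 3, and bars show the mean ± SD of 3 libraries. *Lgals7* steps down from 134 to 7.60 and *Lgals8* steps up from 4.83 to 20.8 from anti-CD3 alone to the combination, and the 3 combination libraries of *Lgals3* lie above all other libraries.

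*Lgals7* encodes galectin-7, a prototype galectin best known from stratified epithelia (gene ID 16858, chromosome 7, 28863796 to 28866285, plus strand). Its transcripts were lower in each treated group than with anti-CD3 alone, and lowest with the combination. Replicates 1, 2 and 3 had an FPKM of 155, 159.6 and 87.9 with anti-CD3 alone. It was 55.7, 51.5 and 47.2 with *L. acidophilus*, in the same order. It was 29.8, 18.4 and 29.1 with FK506. It was 9.18, 6.67 and 6.96 with the combination. The 4 groups did not overlap, so every library of a group lay below every library of the group named before it. Counts in the combination libraries were still 247 to 472. T-cell marker sums were 1872 to 2110 FPKM with the combination and 1283 to 1880 with anti-CD3 alone, B-cell sums 138 to 158 and 35.1 to 58.7, and macrophage and dendritic cell sums 55.8 to 96.3 and 2.52 to 4.18. The part of the cell types in the fall of *Lgals7* was not tested.

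In edgeR's quasi-likelihood test, *Lgals7* fell 20.2-fold with the combination compared with anti-CD3 (log2 fold change -4.34, standard error (SE) 0.29, adjusted p = 5.9e-06). It fell 5.66-fold with FK506 compared with anti-CD3 (log2 fold change -2.50, SE 0.27, adjusted p = 0.000189). The combination also lay 7.27-fold below *L. acidophilus* (log2 fold change -2.86, edgeR adjusted p = 4.99e-05) and 3.58-fold below FK506 (log2 fold change -1.84, edgeR adjusted p = 0.00101). These 4 differences passed under every alternative run. The fall with *L. acidophilus* alone was 2.78-fold (log2 fold change -1.48, SE 0.26, edgeR adjusted p = 0.0468), just inside the threshold. It missed the threshold without replicate 1 or 2 of anti-CD3, any library of *L. acidophilus*, replicate 1 or 3 of FK506, or replicate 2 or 3 of the combination, with adjusted p from 0.0510 to 0.180 and a log2 fold change from -1.53 to -1.32. It also missed it with limma on log2(FPKM + 1) and log2(FPKM + 0.1) (adjusted p = 0.0640 and 0.0523), with the compared groups alone (0.165) and with replicates 2 and 3 alone (0.220). FK506 lay 2.03-fold below *L. acidophilus* (log2 fold change -1.02, edgeR adjusted p = 0.0306), a call lost without any library of *L. acidophilus* or without replicate 1 or 2 of FK506 (adjusted p from 0.0580 to 0.127), and with replicates 2 and 3 alone (0.0873). The fall with the combination differed from the sum of the falls with each agent by -0.36 on the log2 scale (SE 0.36, edgeR adjusted p = 0.647), so no departure from additivity on the log scale was detected.

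*Lgals1* encodes galectin-1, the other prototype member, known for binding CD45 and CD43 on activated T cells (gene ID 16852, chromosome 15, 78926725 to 78930465, plus strand). Its transcripts were lower with FK506 and with the combination than with anti-CD3 alone, but this rested in part on 1 library. With anti-CD3 alone replicates 1, 2 and 3 had an FPKM of 484, 1049.5 and 455. With *L. acidophilus* it was 560.4, 520.0 and 518. With FK506 it was 434, 237 and 265. With the combination it was 485, 267 and 273. In both groups with FK506, replicate 1 was the highest and the other libraries lay below every anti-CD3 and *L. acidophilus* library.

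*Lgals1* fell 2.33-fold with FK506 compared with anti-CD3 (log2 fold change -1.22, SE 0.36, edgeR adjusted p = 0.0332), without overlap between the groups. It fell 2.24-fold with the combination (log2 fold change -1.17, SE 0.36, edgeR adjusted p = 0.0196), although replicate 1 of the combination lay within the anti-CD3 range. Without replicate 2 of anti-CD3 the log2 fold changes were -0.69 and -0.64 (adjusted p = 0.149 and 0.109, edgeR). Leaving out replicate 2 or 3 of FK506 raised the adjusted p of the first to 0.130 and 0.102, and leaving out replicate 2 or 3 of the combination raised that of the second to 0.0751 and 0.0741. Both calls were also lost with limma on log2(FPKM + 1) and log2(FPKM + 0.1) (adjusted p from 0.0576 to 0.0779) and with edgeR on the compared groups alone (0.0688 with FK506 and 0.0519 with the combination). The combination libraries lay below the *L. acidophilus* libraries without overlap (log2 fold change -0.76, SE 0.35, edgeR adjusted p = 0.123). That difference passed without replicate 2 of anti-CD3 (log2 fold change -0.76, adjusted p = 0.0434) and without replicate 1 of the combination (-1.13, adjusted p = 0.0376), with the compared groups alone (-0.75, adjusted p = 0.0411) and with replicates 2 and 3 alone (-1.09, adjusted p = 0.0483). *L. acidophilus* alone gave -0.41 against anti-CD3 (SE 0.35, edgeR adjusted p = 0.626), which became 0.12 without replicate 2 of anti-CD3. FK506 and the combination overlapped, with a difference of 0.05 (SE 0.35, edgeR adjusted p = 0.954). The RNA gene *Gm30368* overlaps one end of *Lgals1*, and its own counts were 77 to 388 per library. Those of *Lgals1* were 9997 to 48106. Whether strand was used in counting is not given in the sources used here, and how reads from the overlap were assigned was not tested.

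*Lgals3* encodes galectin-3, the chimera galectin, which is made by activated T cells and in large amounts by macrophages (gene ID 16854, chromosome 14, 47373860 to 47386167, plus strand). Its transcripts were highest with the combination, and it was the only one of the 6 genes for which the test called a different response to *L. acidophilus* in cultures with FK506 and in cultures that lacked it. With anti-CD3 alone replicates 1, 2 and 3 had an FPKM of 26.4, 43.6 and 16.5. With *L. acidophilus* it was 22.1, 23.2 and 23.3. With FK506 it was 20.5, 14.3 and 9.18. With the combination it was 74.5, 48.5 and 48.8. All 3 combination libraries lay above every other library, and the *L. acidophilus* libraries lay above the FK506 libraries.

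The combination raised *Lgals3* 3.69-fold over FK506 (log2 fold change 1.88, SE 0.36, edgeR adjusted p = 0.00424), and this held under every alternative run. Compared with *L. acidophilus*, the combination was 2.30-fold higher (log2 fold change 1.20, SE 0.35, edgeR adjusted p = 0.0199). That call was lost without any library of *L. acidophilus* (adjusted p from 0.0524 to 0.0564) and without replicate 1 of the combination (log2 fold change 0.94, adjusted p = 0.0767), and with replicates 2 and 3 alone (0.92, adjusted p = 0.134). Against anti-CD3 alone the difference was 0.77 on the log2 scale (SE 0.35, edgeR adjusted p = 0.0921). It passed without replicate 2 of anti-CD3 (log2 fold change 1.23, edgeR adjusted p = 0.0134), without TMM factors (1.00, adjusted p = 0.0288), with DESeq2 (0.81, adjusted p = 0.0399) and with limma on log2(FPKM + 1) (1.04, adjusted p = 0.0334). FK506 alone gave -1.11 compared with anti-CD3 (SE 0.35, edgeR adjusted p = 0.0462), with overlapping libraries. That call was lost when any of 9 libraries was left out (replicates 1 and 2 of anti-CD3, all 3 of *L. acidophilus*, and replicates 2 and 3 of FK506 and of the combination), with adjusted p from 0.0562 to 0.205, and the log2 fold change was -0.66 without replicate 2 of anti-CD3. It was also lost without TMM factors (adjusted p = 0.0598), with limma at either pseudocount (0.107 and 0.0907), with the compared groups alone (0.105) and with replicates 2 and 3 alone (0.0569).

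Adding *L. acidophilus* changed *Lgals3* by -0.43 on the log2 scale in the absence of FK506 (SE 0.35, edgeR adjusted p = 0.599) and by 1.88 in its presence. The combination thus exceeded the summed single effects by 2.31 (SE 0.50, edgeR adjusted p = 0.0257), against a median of -0.01 over all genes tested. Without replicate 2 of anti-CD3, the change in the absence of FK506 was 0.02 in place of -0.43. The excess stayed between 1.86 and 2.62 with each library left out. The call was lost without any library of *L. acidophilus*, replicate 3 of FK506, or replicate 1 or 2 of the combination (adjusted p from 0.0506 to 0.0689), and with replicates 2 and 3 alone (0.0830). The macrophage and dendritic cell markers rose in the same libraries: between FK506 and the combination, 6 of the 12 tested were higher and *Itgax* was lower (8.18% and 10.9% of all genes tested were called higher and lower), and replicate 1 of the combination had both the highest *Lgals3* and the highest marker sum, 96.3 FPKM. With FK506 against anti-CD3, 9 of the 12 were higher and 0 lower (10.2% and 8.81% of all genes). For the departure from the summed single effects, 0 of the 12 were called (4.35% of all genes), with a median of 0.83. *Lyz2*, the lysozyme of macrophages, had a mean FPKM of 0.0195 with anti-CD3, 0.0603 with *L. acidophilus*, 2.31 with FK506 and 20.4 with the combination. With anti-CD3 alone, the mean FPKM of *Lgals3* was 28.9, and 5 of the 13 markers were at 0. The part of these cells in the *Lgals3* difference was not tested.

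**Figure D2:**
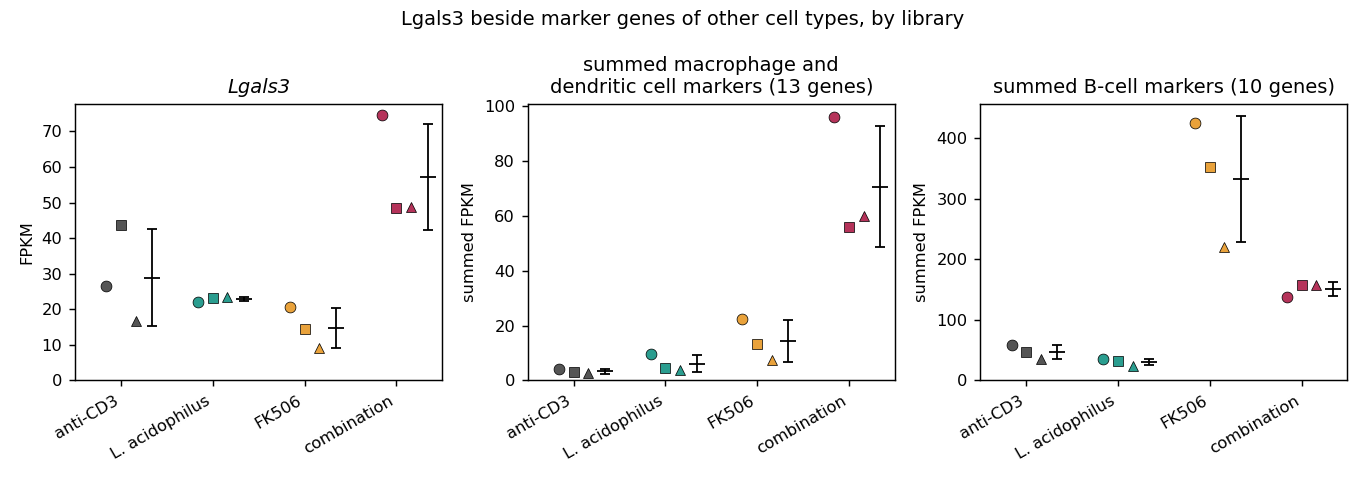
*Lgals3* FPKM and the summed FPKM of 13 macrophage and dendritic cell markers and 10 B-cell markers (vertical axes, from 0) in each library, by group; circles, squares and triangles are replicates 1, 2 and 3, and bars show the mean ± SD of 3 libraries. The combination libraries are highest for *Lgals3* and for the macrophage and dendritic cell markers, and the FK506 libraries are highest for the B-cell markers.

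*Lgals3bp* encodes a secreted scavenger receptor family glycoprotein that is a ligand of galectin-3 (gene ID 19039, chromosome 11, 118392747 to 118401959, minus strand). Its pattern was not that of *Lgals3*: its level was highest with anti-CD3 alone and nearly equal in the 3 treated groups. With anti-CD3 alone replicates 1, 2 and 3 had an FPKM of 35.7, 85.5 and 65.7. With *L. acidophilus* it was 29.1, 35.7 and 39.4. With FK506 it was 29.2, 33.6 and 40.3. With the combination it was 53.3, 34.6 and 31.7. Replicate 1 of anti-CD3 lay within the range of every treated group. In edgeR, FK506 gave a log2 fold change of -0.97 compared with anti-CD3 (SE 0.29, adjusted p = 0.0390) and the combination -0.84 (SE 0.29, adjusted p = 0.0361). Without replicate 2 of anti-CD3 these were -0.64 (adjusted p = 0.162) and -0.51 (adjusted p = 0.174). Neither call held without replicate 3 of anti-CD3 (adjusted p = 0.0678 and 0.0688, edgeR). The FK506 call was also lost without replicate 2 of *L. acidophilus* or any library of FK506 (adjusted p from 0.0511 to 0.128), and the combination call without replicate 2 or 3 of the combination (adjusted p = 0.114 and 0.125). Neither call held without TMM factors, with limma at either pseudocount or with the compared groups alone (adjusted p from 0.0513 to 0.112 with FK506 and from 0.0863 to 0.146 with the combination). *L. acidophilus* alone gave a change as large, -0.92 (SE 0.29, edgeR adjusted p = 0.182), which DESeq2 called (-0.93, adjusted p = 0.0358). Without replicate 2 of anti-CD3 this change was -0.59 (edgeR adjusted p = 0.435).

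*Lgals8* encodes galectin-8, a tandem-repeat galectin that marks damaged endosomes and binds integrins (gene ID 56048, chromosome 13, 12439402 to 12464977, minus strand). Its transcripts rose with FK506 and stood highest with the combination, in the order opposite to that of *Lgals7*. With anti-CD3 alone replicates 1, 2 and 3 had an FPKM of 5.99, 3.61 and 4.89. With *L. acidophilus* it was 7.57, 6.18 and 6.27. With FK506 it was 13.1, 15.7 and 10.4. With the combination it was 24.3, 19.2 and 19.0. The groups did not overlap. B-cell marker sums were highest with FK506 (220.4 to 425 FPKM) and lower with the combination (138 to 158), where *Lgals8* was highest. Macrophage and dendritic cell marker sums followed the order of *Lgals8*, with ranges of 2.52 to 4.18, 3.83 to 9.52, 7.26 to 22.5 and 55.8 to 96.3 FPKM from anti-CD3 alone through *L. acidophilus* and FK506 to the combination, and replicate 1 of the combination was highest in both. The part of other cell types in the rise was not tested. *Lgals8* rose 3.66-fold with the combination compared with anti-CD3 (log2 fold change 1.87, SE 0.20, edgeR adjusted p = 2.98e-05) and 2.48-fold with FK506 (1.31, SE 0.20, adjusted p = 0.00112). The combination lay 2.77-fold above *L. acidophilus* (1.47, SE 0.20, edgeR adjusted p = 0.000226). These 3 differences passed under every alternative run. FK506 lay 1.88-fold above *L. acidophilus* (0.91, edgeR adjusted p = 0.0146), a call lost without replicate 2 or 3 of *L. acidophilus* or replicate 2 of FK506 (adjusted p from 0.0704 to 0.0738). The neighbouring groups at either end of the order were not separated by the test: *L. acidophilus* gave 0.40 over anti-CD3 (SE 0.19, edgeR adjusted p = 0.360) and the combination 0.56 over FK506 (SE 0.19, edgeR adjusted p = 0.0623). The second of these passed in 7 of 9 alternatives, among them DESeq2 (0.59, adjusted p = 0.0159), and without replicate 1 or 2 of anti-CD3 or replicate 2 of FK506 (adjusted p from 0.0311 to 0.0461). The combination exceeded the summed single effects by 0.16 (SE 0.27, edgeR adjusted p = 0.821).

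*Lgals9* encodes galectin-9, the other tandem-repeat member measured here, known as an interferon-induced ligand of the inhibitory receptor TIM-3 (gene ID 16859, chromosome 11, 78962979 to 78984924, minus strand). No comparison passed the test in the fit of all 12 libraries, and the libraries of all groups overlapped. With anti-CD3 alone replicates 1, 2 and 3 had an FPKM of 40.5, 59.7 and 63.5. With *L. acidophilus* it was 33.5, 44.7 and 41.9. With FK506 it was 35.5, 49.4 and 41.2. With the combination it was 53.3, 38.7 and 40.3. In edgeR the log2 fold change against anti-CD3 was -0.52 with *L. acidophilus* (SE 0.20, adjusted p = 0.243), -0.49 with FK506 (SE 0.20, adjusted p = 0.104) and -0.50 with the combination (SE 0.20, adjusted p = 0.0568). The 3 treated groups differed from each other by at most 0.03 on the log2 scale. Leaving out replicate 1 of anti-CD3, the lowest of its group, brought FK506 to -0.65 (adjusted p = 0.0350) and the combination to -0.67 (adjusted p = 0.0150), and leaving out replicate 1 of the combination brought the latter to -0.69 (adjusted p = 0.0182). With replicates 2 and 3 alone, a choice made after the data were seen, FK506 gave -0.54 (adjusted p = 0.0157) and the combination -0.85 (adjusted p = 0.000942).

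**Figure D3:**
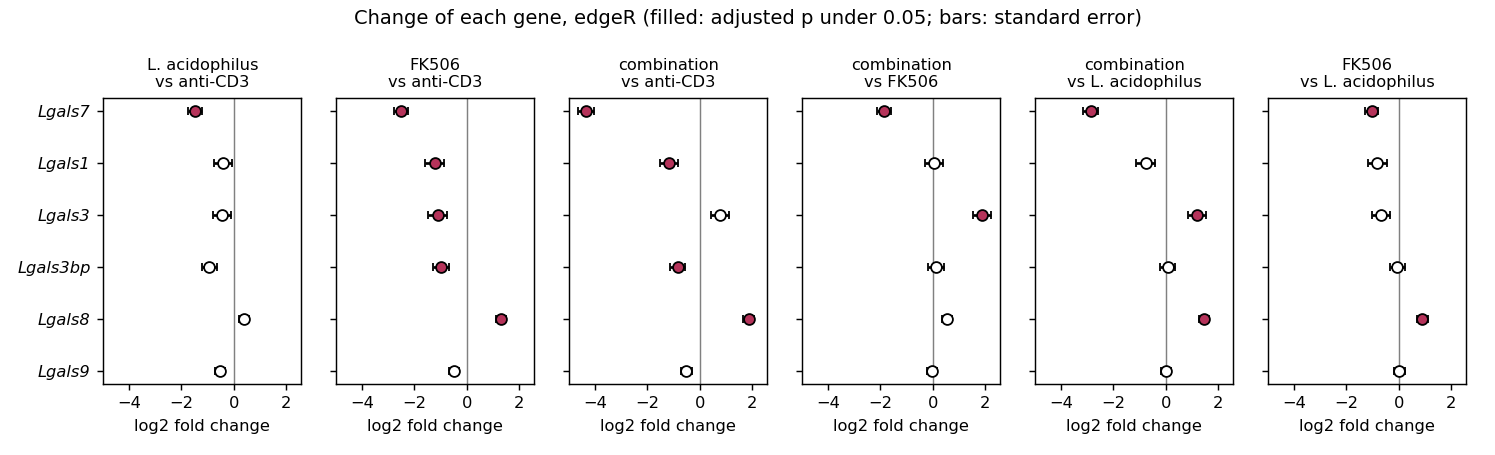
Log2 fold change of each gene (horizontal axis) in 6 comparisons from edgeR's quasi-likelihood test on counts; bars are standard errors and filled points have an adjusted p under 0.05. *Lgals7* lies left of 0 in all 6 panels, from -1.02 to -4.34, and *Lgals8* right of 0, from 0.40 to 1.87, while *Lgals3* changes side between the FK506 and the combination panels.

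Set beside all genes tested, the share of the 6 genes that changed depended on the comparison. The 3 comparisons against anti-CD3 share its libraries, so their results are not independent. *L. acidophilus* alone changed 1 of the 6 genes, *Lgals7*, where 0.229% of all genes tested were called; 3 of the 6 had an unadjusted p under 0.05, as had 14.8% of all genes, and DESeq2 called 2, where it called 4.71% of all genes. Both shares also stand behind the counts of this comparison given for the gene lists. FK506 alone changed 5 of the 6, of which 4 were lower, against 19.0% of all genes tested (10.2% higher and 8.81% lower). The median log2 fold change was -1.04 over the 6 genes and -0.00167 over all genes. Without TMM factors 3 of the 6 were called, and the higher share of all called genes went from 53.7% to 65.7%. With replicate 2 of anti-CD3 left out, 2 of the 6 were called, *Lgals7* and *Lgals8*, and 3305 of 23421 genes tested, in place of 4483 of 23585. The same omission left none of the 6 called with *L. acidophilus*, where edgeR then called 5 genes in all.

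The combination changed 4 of the 6 compared with anti-CD3, of which 3 were lower, against 43.3% of all genes tested (21.5% higher and 21.8% lower), so a share of this size is close to the background. Without TMM factors, the median of all genes moved up by 0.205 on the log2 scale and the higher share of called genes went from 49.7% to 62.9%, and the direction of each of the 4 called genes was kept. The called genes were not the same, since *Lgals3bp* lost its call (-0.63, adjusted p = 0.0863) and *Lgals3* gained one (1.00, adjusted p = 0.0288). With replicate 2 of anti-CD3 left out, 3 of the 6 were called, *Lgals7* lower and *Lgals3* and *Lgals8* higher, and 9046 of 23421 genes tested, in place of 10209 of 23585. Compared with FK506, the combination changed 2 of the 6 (*Lgals3* higher and *Lgals7* lower), against 19.1% of all genes tested (8.18% higher and 10.9% lower). Here the higher share of called genes went from 42.8% to 54.5% without TMM factors. Compared with *L. acidophilus*, the combination changed 3 of the 6 (*Lgals3* and *Lgals8* higher, *Lgals7* lower), against 33.6% of all genes tested, and the higher share went from 49.4% to 60.5% without TMM factors, which moved the median of all genes by 0.131. FK506 and *L. acidophilus* differed in 2 of the 6 (*Lgals7* lower and *Lgals8* higher with FK506), against 7.52% of all genes tested. The interaction (the combination set against the summed single effects) was called for *Lgals3* alone of the 6, against 4.35% of all genes tested.

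The other galectin genes on the list were little expressed in these cells. *Lgals2* and *Lgals12* had no counts in any library, and *Lgals6* was not analysed here. *Lgals4*, an intestinal galectin whose gene lies 22085 bases from *Lgals7* on the same chromosome, did not share its fall: its mean FPKM was 4.46 ± 1.35 (SD, n = 3) with anti-CD3, 3.95 ± 0.646 with *L. acidophilus*, 3.37 ± 0.546 with FK506 and 5.04 ± 0.251 with the combination, and its log2 fold change with the combination was 0.03 compared with anti-CD3 (edgeR adjusted p = 0.946). *Lgalsl*, which encodes a galectin-like protein, had 1.25, 1.97, 1.25 and 1.29 in the same order and was lower with the combination than with *L. acidophilus* (log2 fold change -0.73, edgeR adjusted p = 0.0174). *Grifin*, a galectin-related gene known from the lens, rose from 7 to 27 counts with anti-CD3 to 87 to 155 with the combination (log2 fold change 2.68, edgeR adjusted p = 0.00051), but reached a mean of only 1.13 FPKM. Of the 3 tested, *Grifin* alone was called, higher with FK506 and with the combination, where 19.0% and 43.3% of all genes were called, and edgeR called none with *L. acidophilus* (2 at an unadjusted p under 0.05, and none with DESeq2).

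Some genes that build the sugars recognised by galectins passed the test in both groups with FK506, and their counts are to be read against the 19.0% of all genes called with FK506 and the 43.3% called with the combination, each compared with anti-CD3. Of 12 genes of N-glycan branching and galactose addition, edgeR called none with *L. acidophilus* (1 at an unadjusted p under 0.05, and none with DESeq2), while 4 were higher and 1 lower with FK506 and 4 were higher and 2 lower with the combination, the latter share (6 of 12) being close to that of all genes. Their median log2 fold change was 0.18 with FK506 and 0.38 with the combination, against -0.00167 and 0.02 over all genes tested. *Mgat5*, which adds the branch that carries preferred galectin-3 ligands, had an FPKM of 2.57, 2.67 and 3.68 with anti-CD3, 3.45, 3.60 and 3.31 with *L. acidophilus*, 7.19, 9.13 and 6.66 with FK506 and 10.6, 12.8 and 13.3 with the combination. It rose with FK506 (log2 fold change 1.26, edgeR adjusted p = 0.000375), and the combination lay above FK506 (0.64, edgeR adjusted p = 0.0130) with no overlap of libraries. *Mgat1*, which starts the complex branches, fell with the combination from 40.7 to 28.1 FPKM (-0.72, edgeR adjusted p = 0.00102). *B3gnt2*, which extends poly-lactosamine chains, had a log2 fold change of -0.13 with the combination (adjusted p = 0.325) and *Man1a*, a trimming mannosidase, of 0.41 (adjusted p = 0.0847). *B4galt1*, a galactosyltransferase named here after its values were seen, rose from 18.5 FPKM with anti-CD3 to 42.2 with FK506 (1.07, edgeR adjusted p = 0.000114), and the combination gave 1.08 (edgeR adjusted p = 1.47e-05).

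Of 6 genes of the O-glycan core and of sialic acid capping, 4 were higher and 1 lower with FK506, and 4 were higher and 1 lower with the combination, where 19.0% and 43.3% of all genes were called. The median log2 fold change of the list was 0.96 with FK506 (all genes -0.00167) and 0.45 with the combination (all genes 0.02). edgeR called none with *L. acidophilus* (1 at an unadjusted p under 0.05, and none with DESeq2). *St6gal1*, whose alpha-2,6 sialic acid caps are known to block galectin-1 binding, had an FPKM of 9.59, 2.72 and 3.74 with anti-CD3 and 7.73, 3.45 and 3.91 with *L. acidophilus*. It had 41.0, 39.7 and 22.8 with FK506 and 43.0, 35.4 and 37.2 with the combination. It rose with FK506 (log2 fold change 2.58, edgeR adjusted p = 0.00207) and with the combination (2.69, adjusted p = 0.000424). *St6gal1* is also expressed by B cells, whose markers were highest with FK506, and their part in this rise was not tested. *C1galt1*, which makes the core O-glycan, rose to 18.6 FPKM with the combination (0.56 over anti-CD3, edgeR adjusted p = 0.00175), and *St3gal1*, a sialyltransferase of that core, fell from 25.5 to 19.7 (-0.57, edgeR adjusted p = 0.0175). *Gcnt1*, the core branching enzyme and also named after its values were seen, had 0.541, 0.185 and 0.457 FPKM with anti-CD3 and 8.67, 7.83 and 8.06 with the combination (4.16, edgeR adjusted p = 2.75e-05). Macrophage and dendritic cell markers were also highest with the combination, and the part of other cell types in the rise of *Gcnt1* was not tested.

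**Figure D4:**
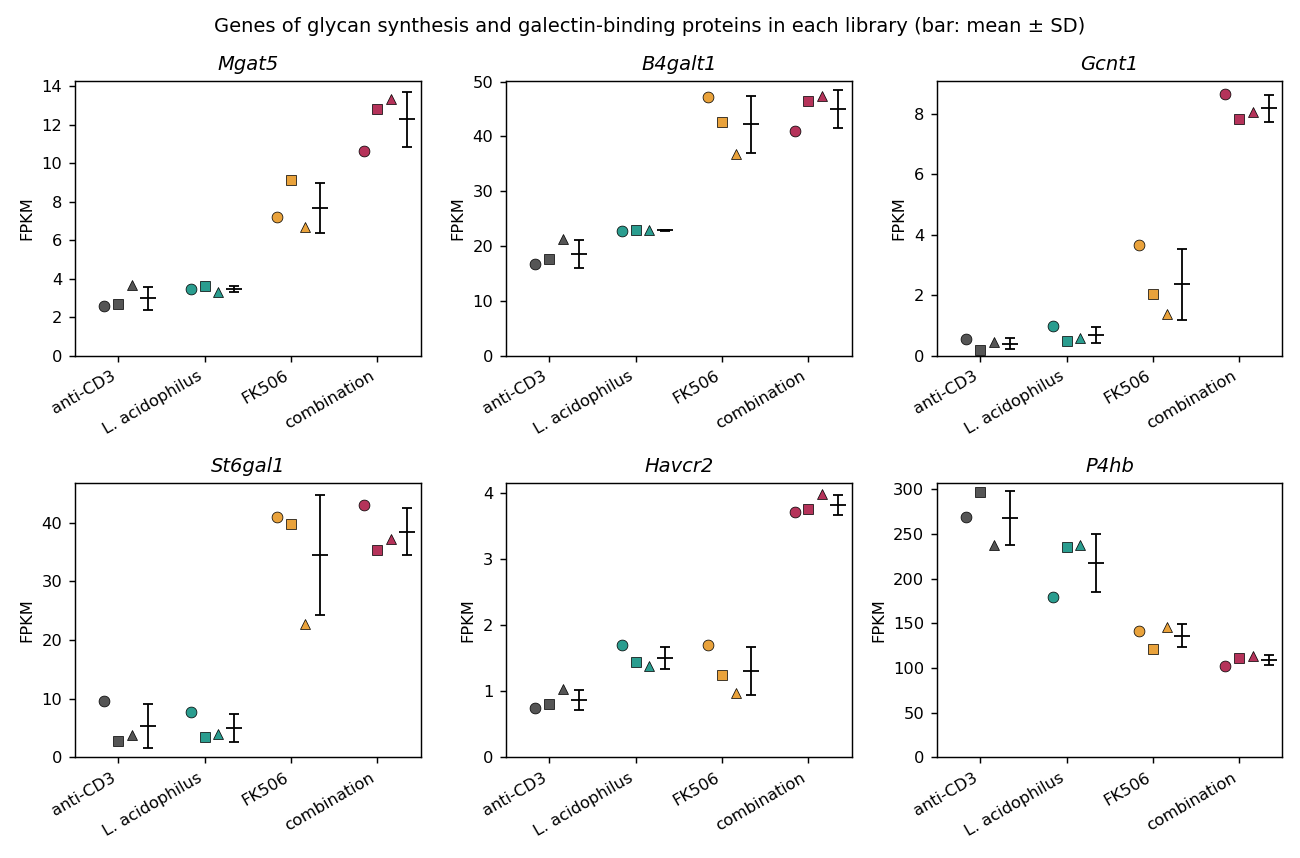
FPKM (vertical axes, from 0) of 4 genes of glycan synthesis and of the galectin-binding proteins *Havcr2* and *P4hb* in each library, by group; circles, squares and triangles are replicates 1, 2 and 3, and bars show the mean ± SD of 3 libraries. *Mgat5*, *B4galt1*, *Gcnt1* and *St6gal1* are higher in every FK506 and combination library than in any anti-CD3 library, *Havcr2* is highest with the combination (3.83) and *P4hb* lowest (109). *B4galt1* and *Gcnt1* were picked after their values were seen. Glycan genes that were lower with the combination than with anti-CD3, such as *Mgat1* (log2 fold change -0.72) and *St3gal1* (-0.57), are not shown.

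The 17 glycoproteins known to bind galectins on T cells moved in both directions. edgeR called none with *L. acidophilus* (7 at an unadjusted p under 0.05, and 1 with DESeq2). With FK506 1 was higher and 4 were lower, and with the combination 6 were higher and 3 lower compared with anti-CD3, where 19.0% and 43.3% of all genes were called, so that the combination count (9 of 17) is close to the background. Compared with FK506, where 19.1% of all genes were called, the combination had 6 higher and 1 lower, with a median log2 fold change of 0.43 against 0.03 over all genes tested. *Havcr2*, which encodes the galectin-9 receptor TIM-3, had a mean FPKM of 0.863 ± 0.153 (SD, n = 3) with anti-CD3, 1.51 ± 0.168 with *L. acidophilus*, 1.31 ± 0.369 with FK506 and 3.83 ± 0.149 with the combination. It rose with the combination compared with anti-CD3 (log2 fold change 1.95, edgeR adjusted p = 2.72e-05) and compared with FK506 (1.46, adjusted p = 0.00079), while its ligand gene *Lgals9* did not pass either test. Macrophages and dendritic cells also express *Havcr2*, and their markers were highest with the combination as well, and their part in this rise was not tested. *P4hb*, a disulfide isomerase that galectin-9 holds at the T-cell surface, went from 268 ± 29.7 FPKM with anti-CD3 to 136 ± 12.8 with FK506 (-1.10, edgeR adjusted p = 0.000527) and 109 ± 5.77 with the combination (-1.51, adjusted p = 1.74e-05). *Cd2*, an adhesion receptor, fell from 330.3 ± 110.4 to 225 ± 46.7 FPKM with the combination (-0.75, edgeR adjusted p = 0.0143). *Ptprc*, which encodes CD45, had 243 ± 53.0 FPKM with anti-CD3 and 352 ± 5.51 with the combination (0.33, edgeR adjusted p = 0.0681).

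The 12 interferon-stimulated genes on the list were set beside *Lgals9* and *Lgals3bp*, both known to respond to interferon. In edgeR none was called with *L. acidophilus* (7 at an unadjusted p under 0.05, and 4 with DESeq2), where their median log2 fold change was -0.66 against -0.00477 over all genes tested. With FK506 2 were higher and 5 lower, and with the combination 4 were higher and 4 lower, where 19.0% and 43.3% of all genes were called. *Irf1*, an interferon-induced transcription factor, rose with the combination compared with anti-CD3 (0.79, edgeR adjusted p = 0.000183), and *Bst2*, a membrane tether of budding virus, had -0.90 (adjusted p = 0.0550).

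Patterns over the 12 libraries were compared by Pearson's r of log2(FPKM + 1), given as a description, since libraries of a group share their treatment and all libraries share scaling and depth differences. Among 11176 genes with a mean FPKM of at least 1, those most like *Lgals7* were *Fdps*, an enzyme of the sterol pathway (r = 0.989), and *Nkain1* (r = 0.989). *Fdps* had a mean FPKM of 196 with anti-CD3, 112 with *L. acidophilus*, 69.8 with FK506 and 35.3 with the combination. Those most like *Lgals8* were *Add3*, a membrane skeleton protein (r = 0.991), and *Plekha1* (r = 0.991), and the mean FPKM of *Add3* in the same order was 5.54, 8.41, 21.0 and 39.4. *Lgals3* was most like *Klc3*, a kinesin light chain (r = 0.965), and *Pkp3*, a desmosome protein (r = 0.950), and *Lgals1* most like *Mrpl14*, a mitochondrial ribosomal protein (r = 0.977), and *Sugt1* (r = 0.947). *Lgals3bp* was most like *Usp18*, an interferon-stimulated gene (r = 0.929), and *Ric8a* (r = 0.888), and *Lgals9* most like *Mettl27* (r = 0.878) and *Dapl1* (r = 0.869). Among the 6 genes themselves, *Lgals7* and *Lgals8* ran opposite to each other (r = -0.944), *Lgals9* and *Lgals3bp* ran together (r = 0.885), and *Lgals1* ran with *Lgals7* (r = 0.712), while *Lgals3* had an r between -0.353 and 0.347 with the other 5.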

How the data were processed

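RNA-seq was performed on the 12 libraries described above. Per the labels, the authors' processing notes name bcl2fastq 2.20.0, Trimmomatic, HISAT2 2.1.0, StringTie 2.1.3b and the builds mm10 and GRCm38. The authors deposited read counts per gene, FPKM values and TPM values in one table, and 0 columns belonged to no sample. The quantile normalization named in the methods is not visible in the deposited FPKM values, whose totals differ between libraries. The deposited TPM values were a constant multiple of FPKM within each library (100% of genes above FPKM 1 within 1%) and were used only for that check. The labels and the methods name different sequencers.

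Counts were tested in R 4.3.3 with edgeR 4.0.16 (quasi-likelihood, TMM factors, 1 mean per group, all 12 libraries in the fit), as had been planned for a table with counts. A call is an adjusted p (Benjamini-Hochberg, over the 23585 genes tested) under 0.05, whatever the fold. The SE is the size of the log2 fold change over the root of its F statistic. An exact two-sided permutation test of 3 libraries against 3 reaches at best p = 0.1, so none is given. Levels are FPKM as mean ± SD (n = 3). The scripts were tested on simulated data, with changes set in the combination against anti-CD3. At a true log2 fold change of -1 and 1, edgeR recovered 30 and 31 of 50 genes each, and DESeq2 38 and 38. Among genes left unchanged, edgeR called 4 and DESeq2 43, with 23262 genes tested. Replicate pairs differed by more than sampling noise (chi-square per gene from 4.61 to 205), and each library counted as 1 sample. This does not show that the libraries were independent. Replicates 2 and 3 differed least with the combination (4.61) and with *L. acidophilus* (9.57). Their pairs with replicate 1 had 78.7 and 86.7 in the first of these groups and 60.2 and 59.5 in the second.

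Alternatives were other filters on low counts, no TMM factors, DESeq2 1.42.0, limma 3.58.1 on log2(FPKM + 1) and log2(FPKM + 0.1), a replicate block, the compared groups alone, a 2-fold cut-off, and each library left out. Replicates 2 and 3 alone were added after the data were seen. The 6 genes, the gene and marker lists and the tests were chosen with earlier results of these data known. Named from each list were the 3 genes with the highest mean FPKM and *Mgat5*, *St6gal1* and *Havcr2*, except 1 gene that is not reported here, and for likeness the 2 genes with the highest r per member, leaving out the members and predicted genes (symbols in Gm or Rik). Coordinates and promoters are from RefSeq on GRCm38.p6. Python 3.11.15 and matplotlib 3.10.9 made the figures.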

Additional observations from a re-analysis of the deposited data

Results flagged for a closer look

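The effect of *L. acidophilus* on *Lgals3* differed between cultures without and with FK506. It was -0.43 on the log2 scale without FK506 (SE 0.35) and 1.88 with it (SE 0.36), a difference of 2.31 (SE 0.50, adjusted p = 0.0257 in edgeR's test of the interaction, n = 3 libraries a group, a 4.96-fold excess over the product of the single effects). Without replicate 2 of anti-CD3, the effect in the absence of FK506 was 0.02. All 3 combination libraries lay above all 3 FK506 libraries, whereas the *L. acidophilus* libraries lay within the range of anti-CD3 alone. The call was lost without any library of *L. acidophilus*, replicate 3 of FK506, or replicate 1 or 2 of the combination (edgeR adjusted p from 0.0506 to 0.0689). Macrophage and dendritic cell markers summed to 55.8 to 96.3 FPKM in the combination libraries and to at most 22.5 in all others, and their part in the difference was not tested.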

How the results depend on the processing

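Under the alternatives other than leaving out a library, 317 of the log2 fold changes kept their direction and their side of the threshold, 28 lost the call, 17 gained it and 10 reversed, and with each library left out in turn these numbers were 424, 52, 9 and 19. The cause of these shifts was not tested, except that fewer libraries or genes enter some fits.

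For *L. acidophilus* against anti-CD3, the 6 genes gave 2 calls with DESeq2, 0 with limma at either pseudocount, 0 with the compared groups alone, 0 with replicates 2 and 3 alone and 0 to 1 with a library left out. Over all genes these settings called 1112, 86 (pseudocount 1), 94 (pseudocount 0.1), 0 and 3 in place of 54. For FK506 against anti-CD3, the calls fell from 5 to 3 without TMM factors, to 2 with limma at either pseudocount, to 2 with the compared groups alone and to between 2 and 5 with a library left out. Over all genes the first settings called 4575, 4075 (pseudocount 1), 4451 (pseudocount 0.1) and, of 21029 tested, 2964, in place of 4483. For the combination against anti-CD3 there were 2 with the compared groups alone (8846 of 21534 over all genes, in place of 10209) and 2 to 5 with a library left out. A library left out gave 2 to 3 calls for the combination against FK506, 2 to 4 against *L. acidophilus*, 0 to 2 for FK506 against *L. acidophilus* and 0 to 1 for the departure from the sum. FK506 against *L. acidophilus* gave 1 call with a 2-fold cut-off (1176 over all genes, in place of 1774) and 1 with replicates 2 and 3 alone (2076 over all genes), and the departure 0 with replicates 2 and 3 alone (474 over all genes, in place of 1025). The fit of the compared groups alone was not run for the departure, which needs all 4.

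None of the results that reversed had passed the test. For the combination against FK506, *Lgals9* became 0.0804 without TMM factors, 0.0206 with DESeq2, 0.0663 and 0.0676 with limma at a pseudocount of 1 and 0.1 and 0.0174 with the replicate block, and with replicates 2 and 3 alone *Lgals1* became -0.0220 and *Lgals3bp* -0.28. With replicates 2 and 3 alone, the combination against *L. acidophilus* became -0.28 for *Lgals9* and -0.33 for *Lgals3bp*, and the departure of *Lgals8* became -0.0869. With a library left out, *L. acidophilus* against anti-CD3 ranged from -0.64 to 0.12 for *Lgals1* and from -0.73 to 0.0222 for *Lgals3*. The combination against FK506 ranged from -0.32 to 0.35 for *Lgals1*, from -0.20 to 0.11 for *Lgals9* and from -0.17 to 0.28 for *Lgals3bp*. The combination against *L. acidophilus* ranged from -0.16 to 0.12 for *Lgals9* and from -0.21 to 0.24 for *Lgals3bp*. FK506 against *L. acidophilus* ranged from -0.0853 to 0.15 for *Lgals9* and from -0.17 to 0.0702 for *Lgals3bp*. The departure ranged from -0.0688 to 0.76 for *Lgals1* and from -0.0438 to 0.32 for *Lgals8*.

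Deviations from the group means correlated in part between libraries of one replicate number (mean correlation 0.210, from -0.123 to 0.512, over 0.1 in 12 of 18 pairs, against -0.102 for different numbers), and nothing says what a number stands for, so the numbers were not taken as pairs. With the replicate block, 1, 4, 4, 3, 3, 2 and 1 of the 6 genes were called in the 7 comparisons in the order of the plot of changes, the departure last. The block lost *Lgals3bp* with FK506 (adjusted p = 0.0580) and the combination (0.0695) and gained *Lgals3* for the combination against anti-CD3 (0.0493) and *Lgals8* for the combination against FK506 (0.0403). Over all genes the block gave more calls in each of the 7 comparisons, 101, 4887, 10478, 5215, 8421, 2221 and 1578, in place of 54, 4483, 10209, 4509, 7930, 1774 and 1025.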
